A study of Rattus norvegicus with 52 samples.

Results

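Oxidative phosphorylation subunits are the nuclear-encoded proteins of the 5 complexes in the inner mitochondrial membrane. Members were taken by gene symbol alone (names starting with Ndufa, Ndufb, Ndufc, Ndufs, Ndufv, Uqcr, Atp5, Cox4, Cox5, Cox6, Cox7 or Cox8, and the 4 genes Sdha, Sdhb, Sdhc and Sdhd), which gave 87 of the 17356 gene rows. By name, 34 belong to complex I, 6 (the Ndufaf genes) to complex I assembly, 4 to complex II, 8 to complex III, 18 to complex IV and 17 to complex V. A few that the rule takes are not regular subunits: the Ndufaf factors, Cox7a2l, which acts in joining complexes III and IV, Atp5s and Atp5sl, and the pseudogene row Cox6c-ps1. Complex IV includes Ndufa4 and Ndufa4l2, whose names still carry the prefix of complex I.

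RNA was sequenced in 48 libraries of mammary cells sorted by flow cytometry. At 9 weeks, ACI rats of the genotypes Cdkn1b+/+ (wild type, WT) and Cdkn1b-/- (knockout, KO) gave 16 libraries, 2 per genotype of basal cells (Cd24+ Cd29HIGH), mature luminal cells (Cd24+ Cd29LOW Cd49b- PNA-) and luminal progenitors (LP) that bound peanut agglutinin (PNA+) or carried Cd49b. Younger ACI rats of both genotypes gave 11 libraries at 4 weeks and 9 at 6 weeks. These were of basal and of luminal (Cd24+ Cd29LOW) cells, with 2 or 3 per group. The paper describes both younger sets as ranges of age, and numbers in some titles may give the age of a rat. If so, KO basal 1 and KO luminal 1 of 6 weeks came from a younger rat than the other libraries of that set. The same would hold for WT basal 1 and WT luminal 1 within the set of 4 weeks. The part of this in the comparisons of genotype and age was not tested beyond leaving out single libraries. A further experiment held 12 libraries of basal and luminal cells from ACI (2 per group) and BN rats (1 per group), with or without estradiol (E2). The paper describes implants placed in 9-week-old rats that release E2 for 3 weeks. The titles of its luminal libraries carry CD49b_PNA_LUM, so their gate may differ from the other luminal gates. Cdkn1b encodes the cell cycle inhibitor p27. The KO rats carried the small deletions em1 (DEL-32) and em4 (DEL-65), and the labels do not name the allele of a library. Rats of both genotypes came from these 2 lines in equal parts, as littermates of heterozygous parents. Every KO rat had cataracts from birth. The alleles were made in zygotes of the outbred SD strain and then crossed to ACI, and the loss of p27 was in the whole animal rather than in mammary cells alone. Each BN title names 2 animals.

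Complexes I to IV pass electrons from NADH and succinate to oxygen. Complexes I, III and IV also pump protons, and complex V uses the proton gradient to make ATP. Most subunits are encoded in the nucleus and must be matched by a few encoded in mitochondrial DNA, which were not among the rows analysed here. Complexes I and II take up electrons, complex III hands them to cytochrome c, and complex IV, cytochrome c oxidase, reduces oxygen. Several complex IV subunits and the related Ndufa4 exist as pairs of genes used in different tissues or oxygen levels. Cox6a2 is known from heart and skeletal muscle, Cox6b2 from testis, and Cox4i2 and Ndufa4l2 from cells that respond to low oxygen, pericytes among them. Mature luminal cells of the gland include the hormone-sensing cells, LP give rise to milk-secreting cells, and basal cells are contractile.

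The promoters of 5 members that the comparisons below turn on are printed here so that their sequence can be read beside their values. They were picked with their values and motif matches known, as examples with and without a match, and do not stand for the other members. Each window runs from 250 bases before to 50 bases after the start of the gene on its own strand, from RefSeq on the rat assembly GRCr8, which is not the build the counts were made on. Capitals mark exact matches, on either strand, to GCGCATGC (the core of the NRF1 motif), CCGGAAGT (bound by ETS factors), AAGATGGCG (bound by YY1) or TCAAGGTCA (bound by estrogen-related receptors).

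Ndufa6, a subunit of complex I, at chr7:115750268-115750567, minus strand, with an NRF1 core and a YY1 match: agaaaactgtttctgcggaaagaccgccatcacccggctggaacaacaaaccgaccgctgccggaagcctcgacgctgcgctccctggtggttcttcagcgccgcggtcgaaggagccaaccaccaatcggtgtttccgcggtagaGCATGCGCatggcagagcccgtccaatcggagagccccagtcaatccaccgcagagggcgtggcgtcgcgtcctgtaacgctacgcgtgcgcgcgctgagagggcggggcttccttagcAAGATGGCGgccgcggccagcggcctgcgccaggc

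Ndufaf4, a complex I assembly factor, at chr5:43401545-43401844, plus strand, where the NRF1 core is read on both strands of overlapping letters: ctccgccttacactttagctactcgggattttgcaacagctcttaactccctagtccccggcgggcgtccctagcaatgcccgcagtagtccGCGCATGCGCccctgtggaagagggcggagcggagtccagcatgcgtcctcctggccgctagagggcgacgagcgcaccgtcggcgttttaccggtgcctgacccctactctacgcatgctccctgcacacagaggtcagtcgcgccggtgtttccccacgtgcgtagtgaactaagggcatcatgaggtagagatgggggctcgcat

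Cox4i1, the common form of subunit 4 of complex IV, at chr19:65630133-65630432, plus strand, with none of the 4 motifs: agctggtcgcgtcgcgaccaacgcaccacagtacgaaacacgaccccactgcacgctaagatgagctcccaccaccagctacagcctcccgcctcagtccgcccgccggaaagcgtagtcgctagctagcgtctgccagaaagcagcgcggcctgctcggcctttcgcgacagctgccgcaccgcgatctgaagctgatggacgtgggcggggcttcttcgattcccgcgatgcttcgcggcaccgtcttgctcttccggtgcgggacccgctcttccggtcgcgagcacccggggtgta

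Cox6b2, at chr1:78122621-78122920, plus strand, with none of the 4 motifs: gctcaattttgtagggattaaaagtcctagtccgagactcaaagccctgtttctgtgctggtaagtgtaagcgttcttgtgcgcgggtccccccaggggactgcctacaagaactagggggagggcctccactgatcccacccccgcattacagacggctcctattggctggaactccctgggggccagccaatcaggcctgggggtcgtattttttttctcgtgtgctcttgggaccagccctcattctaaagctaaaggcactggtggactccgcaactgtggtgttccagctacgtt

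Cox6a2, at chr1:192219667-192219966, minus strand, with none of the 4 motifs: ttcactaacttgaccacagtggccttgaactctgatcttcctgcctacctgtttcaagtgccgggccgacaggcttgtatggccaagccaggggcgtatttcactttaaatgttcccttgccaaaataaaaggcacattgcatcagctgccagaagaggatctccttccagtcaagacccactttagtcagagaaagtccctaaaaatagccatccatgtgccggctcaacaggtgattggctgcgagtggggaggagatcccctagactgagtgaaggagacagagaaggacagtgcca

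A promoter was found for 74 members, 59 by symbol and 15 by an older symbol. The NRF1 core stood in 14.9% of them against 2.47% of all 33469 promoters of the same length, the YY1 motif in 13.5% against 1.73%, the ETS motif in 9.46% against 3.81%, and the motif of estrogen-related receptors in 2.70% against 0.433%. At least 1 of the 4 motifs stood in 28 of the 74 promoters, that of the tissue isoform Cox8c among them, and none in the other 46. These are counts of letters and not of bound sites.

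Libraries held between 7985619 and 33859550 counts on genes, and the members took 0.428% to 2.98% of them. In every library 34.8% to 57.0% of reads were not placed uniquely and were therefore not counted, so that members with near-identical copies in the genome have uncertain levels. Atp5f1, Ndufa1, Cox8c, Cox6c-ps1 and Cox8b had between 1 and 73 counts over all libraries, and 80 to 83 members passed the filter on low counts in each comparison. Cdkn1b lay between 1.59 and 4.24 CPM (counts per 1000000 counted reads) in KO and 6.00 and 18.0 CPM in WT libraries of 9 weeks, and between 4.30 and 15.2 CPM in KO and 15.6 and 43.9 CPM in WT libraries of 4 weeks. At 6 weeks the genotypes overlapped, since the library labelled WT basal 3 had 3.13 CPM and the library labelled KO luminal 2 had 30.2 CPM. The cause of this overlap was not tested. The deletions are small, so reads elsewhere in the gene can still be counted in KO libraries of any age. Basal markers summed to at least 22667 CPM in basal libraries of 9 weeks and at most 3790 CPM in the others. The gates within the luminal cells of 9 weeks were not set apart by their markers: LP markers summed to 24023 to 45859 CPM in mature luminal and 13214 to 45136 CPM in LP libraries, and hormone-sensing markers to 61.4 to 444.7 CPM and 213.3 to 874.1 CPM. Populations are therefore called by their gates below. In these bulk samples fewer cells of a type and less RNA per cell cannot be told apart, and where the labels name no separate animals the p-values measure only the spread between libraries.

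The summed level of the members differed widely both between groups and between libraries of one group. At 9 weeks the sum was 26133 and 13541 CPM in WT basal libraries 1 and 2, and 16295 and 19463 CPM in KO basal libraries. Mature luminal libraries had 18310 and 10846 CPM in WT and 10141 and 14847 CPM in KO. The WT LP libraries had 15387 and 8583 CPM in the PNA+ gate and 13887 and 8498 CPM in the Cd49b+ gate, and those of KO rats lay between 8435 and 10584 CPM. Library 1 was thus the higher in each WT population, and by gene it was higher for 76 to 79 of 82 members there. In KO rats library 1 was higher for 8 members in basal, 4 in mature luminal, 32 in Cd49b+ and 61 in PNA+ cells. The E2 experiment gave the lowest sums, between 4277 and 8327 CPM. Across the 48 libraries the sum ranked with that of cytosolic ribosomal protein genes (Spearman's rho 0.88) and of mitochondrial ribosomal protein genes (0.84), and less with that of the tricarboxylic acid cycle (0.54), where all values share each library's total.

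**Figure D1:**
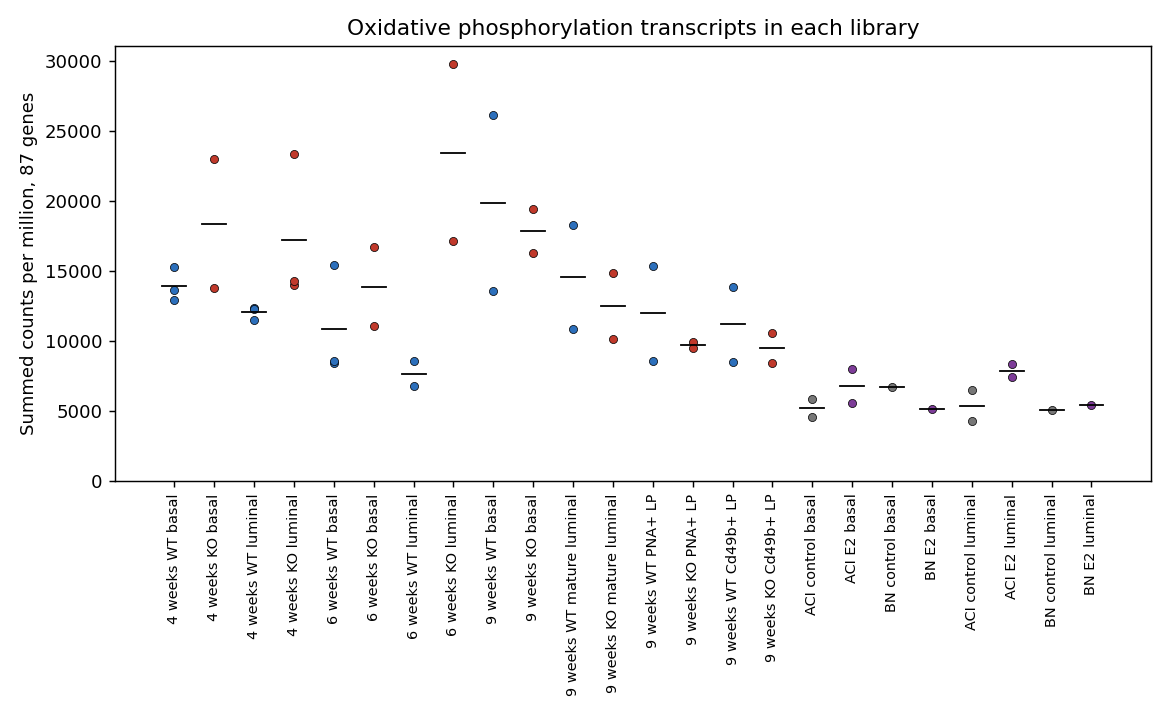
Summed CPM of the 87 members (vertical axis, linear) in each library, by group (horizontal axis), with WT in blue, KO in red, control in grey and E2 in purple, and a bar at the group mean. The library labelled KO luminal 2 of 6 weeks is the highest, at 29816 CPM, and all libraries of the E2 experiment lie at or below 8327 CPM.

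Over all libraries the shares of the 5 complexes varied less than the sum, and the share of the assembly factors varied more. The sum spanned 6.97-fold, complex II 4.03-fold and the assembly factors 28.1-fold. Complex V took 30.0% to 45.1% of the members' counts over all libraries, complex I 17.3% to 27.4% and complex III 9.26% to 16.7%. Complex IV took 11.5% to 27.8% and complex II 2.03% to 8.19%. Complex IV took 23.8% in KO and 21.5% in WT basal cells of 9 weeks, and 19.4% and 19.7% in LP. Complex II went the other way, with 3.63% and 3.69% in basal cells and 6.27% and 4.99% in LP. The widest range was that of the complex I assembly factors, 0.299% to 8.42%, with group means of 6.39% in WT and 0.544% in KO luminal cells of 6 weeks. Most of that 6.39% was Ndufaf4, which is described below.

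Luminal progenitors were compared with mature luminal cells at 9 weeks over both genotypes. Subunits of 4 of the 5 complexes were lower in LP, by a little under 1 on the log2 scale, and the assembly factor Ndufaf4 was higher. By edgeR's quasi-likelihood test at an adjusted p under 0.05, 22 of 82 members were lower and 1 was higher, where 23.4% of all 12809 genes passed (11.7% in each direction). The 8 LP libraries entered this fit as separate replicates. Deviations of PNA+ and Cd49b+ libraries of one number correlated, with r of 0.80 in WT and 0.63 in KO. The SEs and p-values of this comparison may therefore be too small, and a fit with these libraries summed is given below. The median log2 fold change was -0.55 over members and -0.07 over all genes, 73 members had a negative value, and 10 had every LP library below every mature luminal library, against 7.37% of all genes.

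In complex IV, 7 of 15 tested members were lower in LP, with a median log2 fold change of -0.65. Cox4i1, the common form of the regulatory subunit 4, had 144 to 224 CPM in the 8 LP libraries, against 208 and 298 CPM in KO and 307 and 261 CPM in WT mature luminal libraries. Its log2 fold change was -0.75 (SE 0.12, adjusted p = 0.00365 by edgeR's quasi-likelihood test). A single KO mature luminal library reached down into the LP range, and the other 3 lay above it. Cox7a2, a small subunit of the enzyme, was lower by a log2 fold change of -0.78 (SE 0.20), Cox7c by -0.76 (SE 0.20), Cox8a by -0.70 (SE 0.19), Cox6c by -0.72 (SE 0.23), Cox6a1 by -0.67 (SE 0.22) and Cox7a2l by -0.65 (SE 0.18). Cox5a had -0.63 (SE 0.22) and did not pass. The isoforms Cox4i2 (1.63, SE 0.60) and Ndufa4l2 (1.96, SE 0.71) had values of the other sign and did not pass.

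In complex I, 8 of 33 subunits were lower in LP, with a median of -0.55. Ndufa6, a small accessory subunit that carries both motifs printed above, had 58.1 to 109 CPM in LP, 82.0 and 121 CPM in KO and 140 and 117 CPM in WT mature luminal libraries. Its log2 fold change was -0.76 (SE 0.16, adjusted p = 0.00542 by edgeR's quasi-likelihood test), although 2 WT LP libraries of number 1 lay above the lowest mature luminal library. The other 7 were Ndufa2 (-0.81, SE 0.25), Ndufb2 (-0.77, SE 0.18), Ndufa7, Ndufb9, Ndufb11, Ndufc2 and Ndufs7. Of these only Ndufs7 is one of the conserved core subunits that carry the electrons, and the rest are accessory. The core subunits Ndufs1 (0.58, SE 0.37) and Ndufv1 (-0.45, SE 0.20), through which NADH is oxidised, did not pass.

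Complex II, which is also an enzyme of the tricarboxylic acid cycle, had 0 of 4 members past the threshold, with Sdha at 0.13 (SE 0.15) and Sdhb at -0.40 (SE 0.19). In complex III, 3 of 8 members were lower, the small subunits Uqcr11 (-0.75, SE 0.24), Uqcrh (-0.65, SE 0.16) and Uqcr10 (-0.65, SE 0.20), while the core protein Uqcrc1 had -0.44 (SE 0.20) and the iron-sulphur protein Uqcrfs1 -0.30 (SE 0.14). In complex V, 4 of 16 were lower. Atp5l (-0.84, SE 0.23), Atp5g2 (-0.78, SE 0.22) and Atp5j2 (-0.75, SE 0.20) lie in or beside the membrane part of the enzyme, Atp5g2 encoding the ring that turns. The fourth was Atp5sl (-0.53, SE 0.18), which is counted here by its name alone and is not a core subunit. The catalytic subunits Atp5a1 (-0.22, SE 0.24) and Atp5b (-0.31, SE 0.18) did not pass.

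Ndufaf4, which helps to build the arm of complex I in the matrix, had 8.72 to 31.0 CPM in LP, 5.28 and 8.79 CPM in KO and 13.97 and 4.58 CPM in WT mature luminal libraries. The log2 fold change was 1.33 (SE 0.36, adjusted p = 0.0174 by edgeR's quasi-likelihood test), and the groups overlapped through 1 mature luminal library of each genotype.

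**Figure D2:**
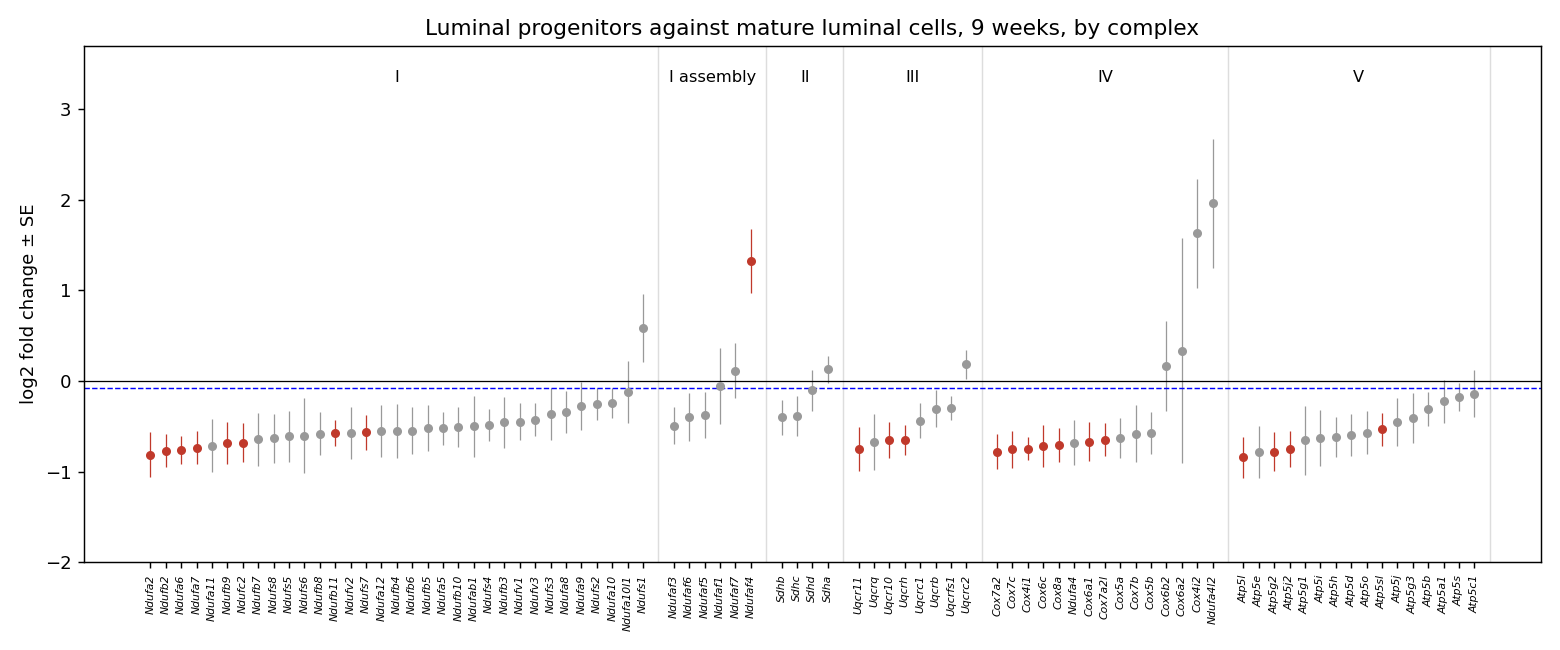
Log2 fold change of LP against mature luminal cells at 9 weeks (vertical axis) with its standard error for each tested member, grouped by complex (horizontal axis), in red where the adjusted p was under 0.05, with a dashed line at the median of all genes. Most members lie below the line, and Ndufaf4 is the red point above 0.

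Other gene lists moved in the same comparison, where 11.7% of all genes passed in each direction, and their part in the result was not tested. Of 87 cytosolic ribosomal protein genes, 69 were lower and 3 higher in LP, with a median of -0.82. Mitochondrial ribosomal protein genes had 6 of 67 lower and a median of -0.44. Of 15 genes of the tricarboxylic acid cycle 3 were higher and none lower, with a median of 0.05, and of 16 regulators of mitochondrial biogenesis Esrra, an estrogen-related receptor, was lower (-0.81, SE 0.27). The count of members depended on single libraries, with 3 called without KO mature luminal library 2 and 4 without WT mature luminal library 1. Library numbers paired the populations within each genotype at 9 weeks, and with the number as a block 65 members were lower and 4 higher, where 45.8% of all genes passed. Taking the sum of the PNA+ and Cd49b+ libraries of one number as 1 library gave 2 members, both lower, without that block (11.7% of all genes).

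The PNA+ and Cd49b+ gates within LP gave 0 of 81 members, where 0% of all 11725 genes passed edgeR's quasi-likelihood test. At an unadjusted p under 0.05 there were 0 members (3.05% of all genes), and DESeq2 called 0 (0.35% of all genes). The median log2 difference of members was 0.18 against -0.01 for all genes, and 76 of 81 had a positive sign. It was -0.01 without WT PNA+ library 1.

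Basal cells were next compared with mature luminal cells at 9 weeks. Tissue isoforms of complex IV had the largest differences, all higher in basal cells, and a few common subunits of complexes IV and V differed by about 1 or less on the log2 scale in either direction. By edgeR's quasi-likelihood test, 9 of 82 members were higher and 2 lower, where 38.7% of all genes passed (20.4% higher and 18.4% lower), and the median was 0.20 over members and -0.04 over all genes. Complex IV had 6 higher and 1 lower of 15, complex V 3 higher and 1 lower of 16, and complexes I, II and III had none. In 6 of 82 members every basal library lay above every mature luminal one, and in 1 every basal library lay below. This was so for 2157 and 1972 of all 12809 genes, so such separation was common over all genes.

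Cox6b2, the second form of subunit 6B, had 11.6 and 17.3 CPM in KO and 12.5 and 10.7 CPM in WT basal libraries, and 0.403 to 0.628 CPM in the 4 mature luminal libraries. The log2 fold change was 4.54 (SE 0.59, adjusted p = 6.32e-05 by edgeR's quasi-likelihood test). Every basal library lay above every mature luminal one. Cox6a2, the muscle form of subunit 6A, had 2.61 and 10.6 CPM in KO and 0.834 and 1.76 CPM in WT basal libraries, and between 0 and 0.224 CPM in mature luminal libraries. Its log2 fold change was 5.23 (SE 1.22, adjusted p = 0.0041 by the same test), and again the groups did not overlap. Cox6a2 was near the floor in mature luminal libraries and passed the filter on low counts through libraries where it was higher. Its p-value and lack of overlap are therefore not separate support. Markers of skeletal muscle summed to 36.3 to 278 CPM in the basal libraries and 4.97 to 7.74 CPM in the mature luminal ones, and their part in these values was not tested.

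The hypoxia-linked isoforms were more uneven. Cox4i2 had 10.2 and 22.5 CPM in KO and 2.39 and 3.80 CPM in WT basal libraries, against 1.01 to 2.09 CPM in mature luminal libraries, with a log2 fold change of 2.21 (SE 0.67, adjusted p = 0.0183). Ndufa4l2 had 8.32 and 22.6 CPM in KO and 3.75 and 6.52 CPM in WT basal libraries and 0.942 to 2.76 CPM in mature luminal libraries, with 2.28 (SE 0.78, adjusted p = 0.0335). Both genes had every basal library above every mature luminal one. Among Cd49b+ libraries the KO library 2 stood out for both, at 14.3 CPM for Cox4i2 and 24.7 CPM for Ndufa4l2, and it had 3790 CPM of basal markers against 657 CPM in the other KO Cd49b+ library. Pericyte markers summed to 70.7 to 258.9 CPM in basal, 66.3 to 157.6 CPM in mature luminal and 80.5 to 406.0 CPM in LP libraries, and their part in these values was not tested.

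Of the common subunits, Cox8a was higher in basal cells by a log2 fold change of 1.01 (SE 0.23, adjusted p = 0.00335 by edgeR's quasi-likelihood test), with 387 to 651 CPM against 185 to 324 CPM. Atp5l (0.86, SE 0.27), Atp5e (0.95, SE 0.35), Atp5b (0.75, SE 0.22) and Cox6c (0.73, SE 0.27) were also higher. Cox5a was lower in basal cells, with 186 and 181 CPM in KO and 261 and 147 CPM in WT against 283 to 367 CPM in mature luminal cells and no overlap (-0.95, SE 0.26, adjusted p = 0.0117). Atp5sl, counted in complex V by its name alone, was lower too (-0.65, SE 0.21). Cox4i1 (0.23, SE 0.15), Sdha (-0.27, SE 0.17), Uqcrc1 (0.49, SE 0.23), Ndufs1 (-0.27, SE 0.42) and Atp5a1 (0.05, SE 0.28) did not pass.

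With the library number as a block, 29 members were higher and 8 lower in basal cells, where 54.1% of all genes passed. The median of members turned to -0.05 without WT basal library 1. Among 16 genes of glycolysis, the pathway that makes ATP without oxygen, 10 were higher and 1 was lower in basal cells, with a median of 0.91. Pfkp, a form of phosphofructokinase, had 4.37 (SE 0.50), the hexokinase Hk1 1.94 (SE 0.23) and the glycolytic enzyme Gapdh 1.30 (SE 0.28), while Aldoc, a form of aldolase, fell by 2.52 on the log2 scale (SE 0.21). Of 28 assembly factors outside the rule, 9 were lower in basal cells and 1 was higher. These list counts are from the fit without the block, where 18.4% of all genes were lower, 20.4% higher and 38.7% called in either direction.

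The younger rats gave the same comparison with another luminal gate. At 4 weeks, 2 of 81 members were higher in basal cells and 0 lower by edgeR's quasi-likelihood test, where 35.1% of all genes passed (20.3% higher and 14.8% lower). Cox6b2 had 18.9 to 37.5 CPM in the 5 basal libraries and 0.403 to 2.17 CPM in the 6 luminal libraries, with a log2 fold change of 5.25 (SE 0.53, adjusted p = 5.92e-06). There was no overlap, which held for 1849 of all 12082 genes that were higher in basal libraries. Ndufa4l2 passed as well (3.12, SE 0.91, adjusted p = 0.0168), but its value rested on KO basal library 1, which had 44.2 CPM where the other basal libraries had 0.383 to 1.31 CPM. Without that library its log2 fold change was 0.84 and its adjusted p was 0.536. The animal as a block gave 21 members higher and 1 lower, where 42.8% of all genes passed, and the median of members lay between -0.18 and 0.43 with single libraries left out. Glycolysis had 8 of 16 genes higher and 1 lower, with a median of 0.64.

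At 6 weeks, 0 of 80 members passed between basal and luminal cells by edgeR's quasi-likelihood test, where 5.65% of all genes did. At an unadjusted p under 0.05 there were 4 (21.4% of all genes), and DESeq2 called 1 (16.6% of all genes). Cox6b2 had 5.31 to 12.9 CPM in WT and 44.2 and 31.1 CPM in KO basal libraries, and 1.21, 1.83, 1.93 and 9.58 CPM in luminal libraries, the last being the library labelled KO luminal 2. Its log2 fold change was 2.43 (SE 0.86) and the groups overlapped through that library. Glycolysis had 6 of 16 genes higher and 1 lower, with a median of 1.04. In the E2 experiment, 0 of 83 members passed between the cell types by edgeR, where 1.66% of all genes did, with 8 at an unadjusted p under 0.05 (16% of all genes) and 7 by DESeq2 (14.7%). There Cox4i2 and Ndufa4l2 had values of 3.45 (SE 1.38) and 3.86 (SE 1.48), where pericyte markers summed to 142 to 3434 CPM in basal and 36.5 to 732 CPM in luminal libraries, and their part was not tested. Cox5a, lower in basal cells at 9 weeks, had -0.98 (SE 0.34) against the luminal gate of this experiment, which may be another.

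**Figure D3:**
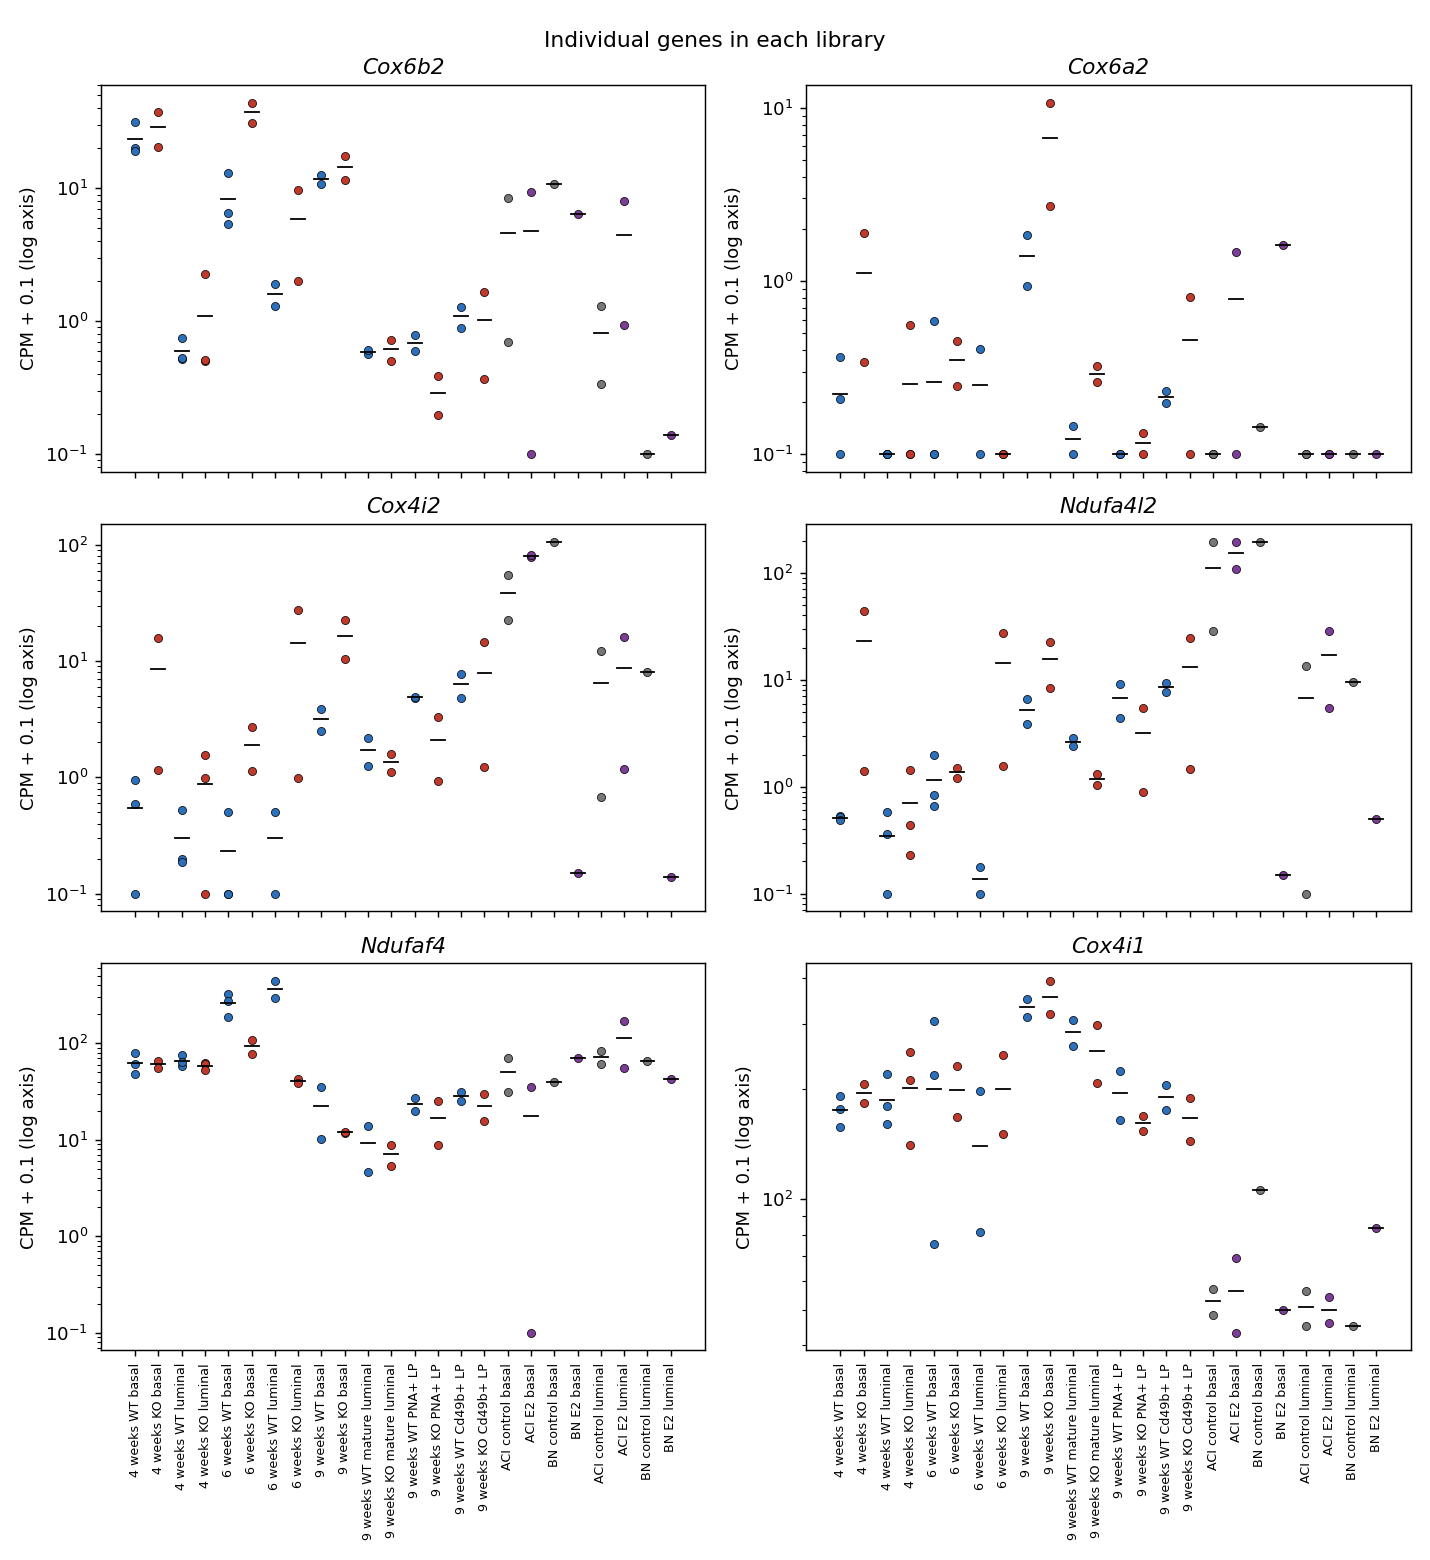
CPM plus 0.1 on a log axis (vertical) in each library by group (horizontal) for Cox6b2, Cox6a2, Cox4i2, Ndufa4l2, Ndufaf4 and Cox4i1, with WT in blue, KO in red, control in grey, E2 in purple and a bar at the mean. Cox6b2 separates basal from luminal cells at 4 and 9 weeks, and Ndufaf4 is higher in WT than in KO libraries of 6 weeks.

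The loss of p27 was compared in each population. At 9 weeks no member passed edgeR's quasi-likelihood test between genotypes. In LP, 0 of 82 passed, where 3.4% of all genes did, with 0 at an unadjusted p under 0.05 (18.3% of all genes) and 0 by DESeq2 (8.59%). The median log2 difference, KO minus WT, was 0.06, and Cox4i1 had 0.08 (SE 0.15), Sdha 0.30 (SE 0.17), Uqcrc1 0.15 (SE 0.23), Ndufv1 0.07 (SE 0.24) and Atp5b -0.05 (SE 0.22). In basal cells, 0 of 82 passed, where 0.0546% of all genes did, with 2 at an unadjusted p under 0.05 (9.09% of all genes) and 0 by DESeq2 (1.46%). Cox4i2 had the largest difference of the tissue isoforms there (2.63, SE 0.93, adjusted p = 0.410), with both KO libraries above both WT libraries. The same separation was seen in 2569 of all 12809 genes. In mature luminal cells, 0 of 82 passed, where 0.133% of all genes did, with 0 at an unadjusted p under 0.05 (7.15% of all genes) and 0 by DESeq2 (1.52%). The medians were 0.13 in basal and -0.08 in mature luminal cells, and each changed sign when single libraries were left out, from -0.26 to 0.70 and from -0.35 to 0.24. A test of the difference in genotype effect called 0 of 82 members by edgeR both for LP and for basal cells against mature luminal cells, with 0 and 1 at an unadjusted p under 0.05. Of all genes 0% passed that test, and 1.75% and 4.39% had an unadjusted p under 0.05.

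At 4 weeks most members had higher values in KO rats without passing the test. In luminal cells, 76 of 81 had a positive difference, with a median of 0.92 against -0.10 over all genes. In 38 of them the 3 KO libraries lay above the 3 WT libraries, against 5.7% of all genes. None passed edgeR's quasi-likelihood test (0% of all genes did), 30 had an unadjusted p under 0.05 against 3.6% of all genes, and DESeq2 called 0 (0% of all genes). The medians of complexes I, III, IV and V were 0.97, 0.92, 0.98 and 0.93, and that of complex II 0.67. The sums show how far 1 library led this. The KO luminal libraries had 23367, 14011 and 14322 CPM against 11518 to 12337 CPM in WT, and without KO luminal library 1 the median of members fell to 0.40. That library had 47139 CPM of cytosolic ribosomal protein genes, the most of the 11.

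In basal cells of 4 weeks, 78 of 81 members had a positive difference, with a median of 0.83 against 0.02, but the 2 KO libraries differed as widely. Their sums were 22991 and 13765 CPM against 12935 to 15269 CPM in WT, and without KO basal library 1 the median was -0.08. No member passed edgeR's test (0% of all genes did), with 7 at an unadjusted p under 0.05 (2.57% of all genes) and 1 by DESeq2 (0.00828%). Ndufb2 and Cox7a2 had 1.07 (SE 0.47) and 0.97 (SE 0.51), while the core genes Atp5b (0.11, SE 0.30), Sdha (-0.28, SE 0.32) and Ndufs1 (-0.16, SE 0.38) had smaller values. The median of cytosolic ribosomal protein genes was 0.59 in basal and 0.90 in luminal cells.

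At 6 weeks the difference between genotypes was larger in luminal cells. The WT libraries summed to 6768 and 8570 CPM and the KO libraries to 17114 and 29816 CPM. The median log2 difference of members was 1.95 against -0.01 over all genes, 75 of 80 were positive, and in 67 both KO libraries lay above both WT libraries, against 23.3% of all genes. None passed edgeR's quasi-likelihood test in the fit of these 9 libraries (0% of all genes did), with 52 at an unadjusted p under 0.05 against 16.4% of all genes. DESeq2 called 38 higher and 1 lower, where 12.5% of all genes passed, and edgeR with both young ages in 1 fit called 33 higher and 1 lower, where 8.77% did. The medians were 2.29 in complex I, 2.22 in complex III, 2.32 in complex IV, 2.04 in complex V and 1.06 in complex II, and -0.996 for the assembly factors.

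Ndufa6 had 31.7 and 40.8 CPM in WT and 98.9 and 480 CPM in KO luminal libraries, a difference of 3.27 (SE 1.09, adjusted p = 0.204 by edgeR's quasi-likelihood test). Uqcrc2, a core protein of complex III, had 60.4 and 63.7 CPM in WT and 208 and 338 CPM in KO (2.31, SE 0.52, adjusted p = 0.129). Genes with smaller values were Cox4i1 (0.54, SE 0.68), Uqcrc1 (0.70, SE 0.42), Atp5b (0.73, SE 0.45) and Sdha (0.67, SE 1.01). Both KO libraries were thus higher for the first pair of genes, but the library labelled KO luminal 2 stood apart from the other luminal libraries of 6 weeks. It had 7371 CPM of adipocyte markers against 79.9 to 501.7 CPM, 78487 CPM of cytosolic ribosomal protein genes, and 8160 genes with at least 10 counts, the fewest of the 9 libraries. Its part in the result was not tested beyond leaving it out, which gave 0 calls and a median of 1.11, while leaving out KO luminal library 1 gave 42 calls.

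In basal cells of 6 weeks, 0 of 80 members passed by edgeR (0% of all genes did), with 6 at an unadjusted p under 0.05 (8.99% of all genes) and 1 by DESeq2 (3.09%) and by the fit of both ages (1.73%). The median was 0.36, and in 19 both KO libraries lay above the 3 WT libraries, against 26% of all genes. The library labelled WT basal 3, whose Cdkn1b level was low, had a sum of 15466 CPM, near the KO libraries at 16725 and 11045 CPM and above the other WT libraries at 8411 and 8590 CPM. Without that library the median was 0.81. A test of the difference in genotype effect, basal minus luminal cells of 6 weeks, called 0 of 80 members by edgeR (0% of all genes). An unadjusted p under 0.05 was reached by 14 members and by 7.42% of all genes. The median difference of members was -1.51, and the library labelled KO luminal 2 entered it.

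Ndufaf4 had lower values in the KO libraries of 6 weeks. Libraries labelled WT had 327, 273 and 186 CPM in basal and 443 and 295 CPM in luminal cells, and those labelled KO had 108 and 78.4 CPM in basal and 42.8 and 39.1 CPM in luminal cells. The labelled genotypes did not overlap in either cell type, nor without the libraries labelled WT basal 3 (186 CPM) and KO luminal 2 (39.1 CPM). Of all 11921 genes, 1772 in basal and 3161 in luminal cells had every KO library below every WT library. The log2 differences were -1.60 (SE 0.42, adjusted p = 0.378) and -3.06 (SE 0.47, adjusted p = 0.121) by edgeR's quasi-likelihood test at 6 weeks alone. It was the 1 member that DESeq2 and the fit of both ages called lower in each cell type. Of the other assembly factors in luminal cells, Ndufaf1 (-2.64, SE 2.58), Ndufaf5 (-1.07, SE 1.04), Ndufaf6 (-0.92, SE 1.57) and Ndufaf3 (-0.26, SE 0.83) also had negative values and Ndufaf7 a positive one (0.83, SE 0.94), and none of them passed. At 4 weeks Ndufaf4 had 47.9 to 79.6 CPM in all 11 libraries, with differences of 0.16 (SE 0.37) in basal and -0.01 (SE 0.33) in luminal cells.

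**Figure D4:**
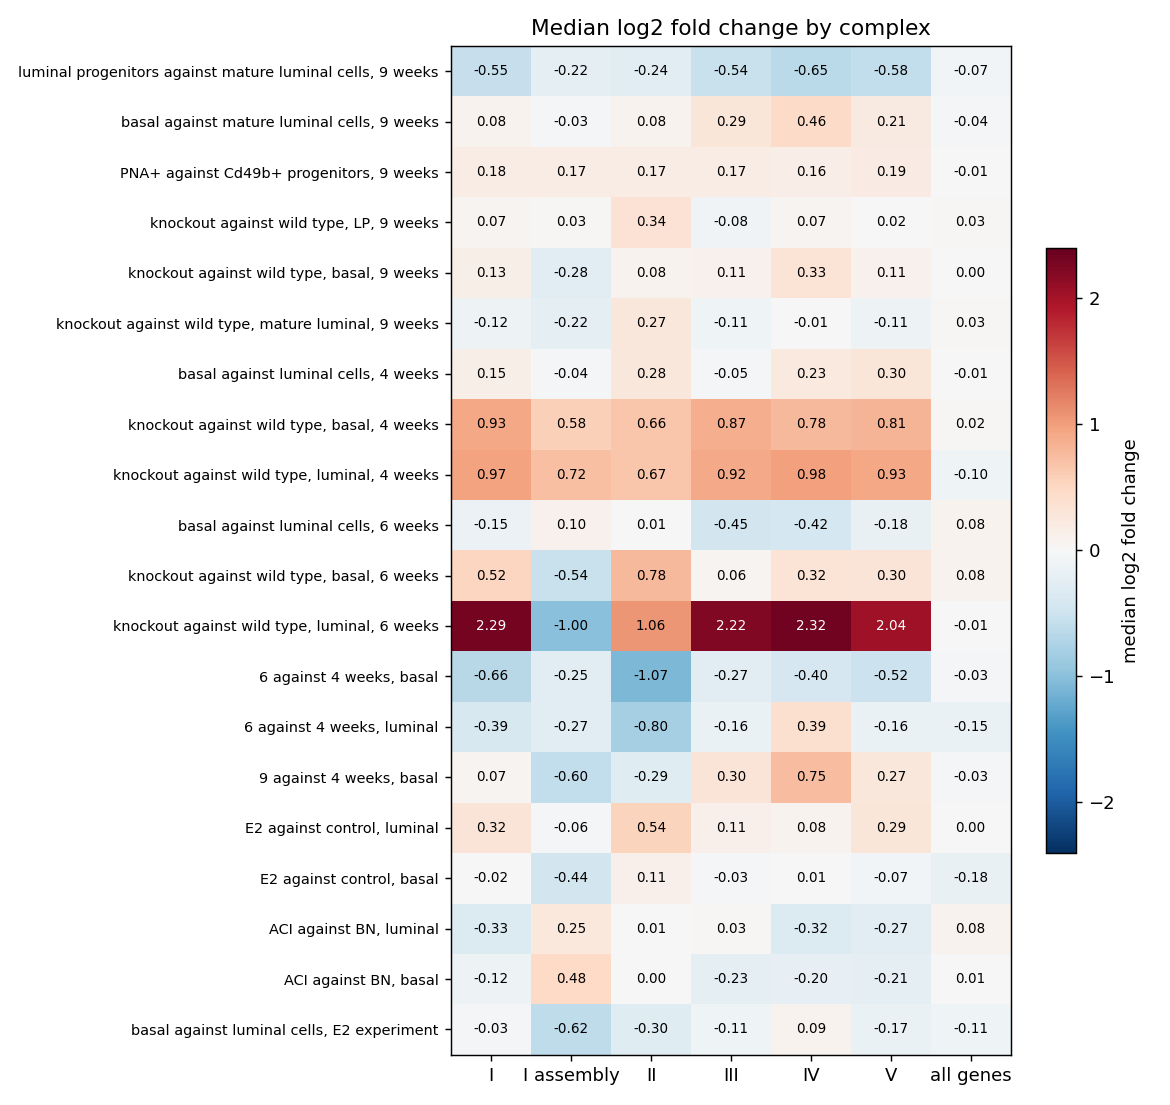
Median log2 fold change of the tested members of each complex (columns) in each of the 20 comparisons (rows), with red for positive and blue for negative values. The row of KO against WT luminal cells at 6 weeks holds the highest medians of complexes I, III, IV and V, and a negative one for the assembly factors.

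Ages were compared over both genotypes, and age cannot be told apart from the preparation and sequencing of each set of libraries. In basal cells, 1 of 81 members was higher and 2 were lower at 6 than at 4 weeks by edgeR's quasi-likelihood test, where 3.2% of all genes passed (1.36% higher and 1.84% lower), with medians of -0.53 over members and -0.03 over all genes. The lower genes were Atp5c1, the central shaft of complex V (-1.15, SE 0.30, adjusted p = 0.0435), and Sdhc, a membrane anchor of complex II (-1.04, SE 0.27, adjusted p = 0.0418). Sdhc had 199 to 382 CPM at 4 weeks, and at 6 weeks 84.9 to 96.5 CPM in WT and 208 and 170 CPM in KO basal libraries. The groups thus overlapped through 1 KO library. The higher gene was Ndufaf4 (1.30, SE 0.28, adjusted p = 0.0219). At 6 weeks its basal levels were higher in libraries labelled WT than in those labelled KO, as given above. For this gene too the ages overlapped through 1 KO library. Single libraries moved the count between 0 and 10. In luminal cells, 0 of 81 passed by edgeR, where 0.74% of all genes did, with 14 at an unadjusted p under 0.05 (15.6% of all genes) and 7 by DESeq2 (7.93%), and the median was -0.25 against -0.15. That median is over genotypes whose mean sums moved in opposite directions. From 4 to 6 weeks the mean sum went from 12059 to 7669 CPM in WT luminal cells. In KO luminal cells it went from 17233 to 23465 CPM, with the library labelled KO luminal 2 included.

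Between 9 and 4 weeks, the basal cells had 2 members higher and 1 lower of 82, where 12% of all genes passed (5.14% higher and 6.89% lower). Atp5l (1.14, SE 0.32, adjusted p = 0.0342) and Atp5g2 (1.06, SE 0.28, adjusted p = 0.0283) of complex V were higher, and Ndufaf4 was lower (-1.83, SE 0.36, adjusted p = 0.00644, all by edgeR's quasi-likelihood test). Ndufaf4 lay between 4.58 and 34.8 CPM in all libraries of 9 weeks, below every library of 4 weeks. Atp5g2 had 208 to 344 CPM in basal libraries of 9 weeks and 87.2 to 173 CPM at 4 weeks, without overlap. In this comparison 1447 of all 12500 genes were higher and 1763 lower without overlap. Of 86 cytosolic ribosomal protein genes 35 were higher and 1 was lower in the same comparison, with a median of 1.06, and the median of members was 0.17.

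Estradiol and strain were compared within each cell type in fits that add both terms, since BN rats gave 1 library per treatment. In luminal cells the sums were 4277 and 6491 CPM in control and 7449 and 8327 CPM in E2-treated ACI rats, and 5052 and 5450 CPM in control and E2-treated BN rats. E2 was thus the higher in both strains, but 0 of 82 members passed edgeR's quasi-likelihood test (0% of all genes did), with 2 at an unadjusted p under 0.05 (3.45% of all genes) and 1 by DESeq2 (1.03%), and the median difference was 0.24. Uqcrc2 had 34.6 and 60.9 CPM in control and 210 and 127 CPM in E2-treated ACI rats, and 42.6 and 117 CPM in BN rats (1.51, SE 0.39, adjusted p = 0.999 by edgeR). Ndufs6, which DESeq2 called lower, had 5.497, 8.07 and 7.29 CPM in the 3 control and 0.0732, 0.125 and 0.0396 CPM in the 3 E2-treated luminal libraries, and was named after its values were seen. It lay at or below 1.48 CPM in all libraries of 9 weeks.

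In basal cells the sums were 4545 and 5851 CPM in control and 5540 and 7987 CPM in E2-treated ACI rats, and 6712 and 5157 CPM in BN rats. No member passed edgeR's test (0% of all genes did), with 0 at an unadjusted p under 0.05 (1.45% of all genes) and 0 by DESeq2 (0.807%), and the median of -0.04 lay between -0.49 and 0.37 with single libraries left out. Cox4i2 had 22.3 and 54.9 CPM in control and 79.1 and 81.0 CPM in E2-treated ACI rats, and 106 and 0.0489 CPM in BN rats. Ndufa4l2 had 28.6 and 194 CPM, 195 and 109 CPM, and 195 and 0.0489 CPM in the same order. The single BN library with E2 was the lowest for both genes, each at 1 count. Pericyte markers summed to 2332, 3434 and 1667 CPM in ACI control library 2, ACI E2 library 1 and the BN control library and to at most 909.5 CPM elsewhere, and to 142 CPM in the BN library with E2. Their part in the levels of these genes was not tested.

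Between ACI and BN rats no member passed edgeR's test (0 of 82 in each cell type, where 0% of all genes did), with 0 at an unadjusted p under 0.05 in luminal (4.03% of all genes) and in basal cells (0.742%). The median log2 difference, ACI minus BN, was -0.22 in luminal cells against 0.08 over all genes, and -0.13 in basal cells. DESeq2 called 1 member in luminal cells (3.49% of all genes), the assembly factor Ndufaf6, and 0 in basal cells (0.163%). Cox4i1 had -0.81 (SE 0.57) and Cox5a -0.84 (SE 0.45) in luminal cells, and -0.64 (SE 0.55) and -0.98 (SE 0.65) in basal cells.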

How the data were processed

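RNA from 48 sorted populations was made into SMARTer libraries from little input and read from a single end. According to the submitters' notes, reads were aligned to rn6 with STAR 2.5.1b and checked with FastQC. The deposited values are HTSeq counts per gene, which the authors did not normalize. Of the reads, 47.1% to 77.0% per library lay in the 5 rows without a gene and were left out. Totals were 7985619 to 33859550 counts, so precision is limited by the 1 to 4 libraries per group.

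Genes with low counts were removed with filterByExpr, counts were scaled by TMM, and all genes were tested with edgeR 4.0.16's quasi-likelihood test (limma 3.58.1, R 4.3.3) at 0.05 after Benjamini-Hochberg adjustment. The 9-week libraries were fitted together, each younger age by itself, and the E2 experiment with strain and treatment as terms. Tests were tried on simulated data. A complex is given by counts and its median, without a test. CPM are counts per 1000000 counted reads. Among 28 pairs of libraries of one group, 0 were identical, and the lowest chi-square per degree of freedom was 45.2.

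The members, lists and tests were chosen with earlier results of these data known. Named genes are Cdkn1b, up to 5 called members per direction, core or common genes and tissue isoforms of each complex, and up to 3 called genes per direction of each list. Other named members were chosen after their values were seen.

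Deviations of 9-week libraries with the same number correlated within genotypes (r from 0.26 to 0.63 in KO and 0.47 to 0.80 in WT) but not between them (-0.30 to 0.00140), so numbers were taken to pair libraries within a genotype. By label, young and E2-experiment libraries pair by animal, with r of 0.109 to 0.615 at 4 weeks, -0.00598 to 0.0857 at 6 weeks and 0.0787 to 0.206 in the E2 experiment. Alternatives were RLE scaling, no filter, DESeq2 1.42.0, these blocks, summed LP libraries, a fit of both young ages and leaving out each library. Figures were drawn with matplotlib 3.10.9 in Python 3.11.15. The progesterone receptor ChIP-seq peaks were not used here.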

Additional observations from a re-analysis of the deposited data

Results flagged for a closer look

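In the 4 WT LP libraries of 9 weeks, Cox4i2 was at 7.69 CPM in Cd49b+ library 1, far above the other 3 libraries by Dixon's criterion. In the 4 KO LP libraries, Cd49b+ library 2 stood as far above the others with 0.709 CPM of Cox6a2 and 1.57 CPM of Cox6b2, and it also had 3790 CPM of basal markers, whose part was not tested. These are 3 of 32 groups of 4 values examined, and chance flags about 1 in 20.

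The genotype effect in luminal cells differed between 6 and 4 weeks for 2 of 81 members by the interaction term of edgeR's quasi-likelihood test, where 1.21% of all genes passed. The log2 effect of KO against WT was lower at 6 weeks by -3.11 for Ndufaf4 (SE 0.56, adjusted p = 0.0160) and higher by 2.10 for Uqcrc2 (SE 0.51, adjusted p = 0.0487). Age cannot be told apart from the preparation of the libraries, and the library labelled KO luminal 2 of 6 weeks entered both values. The same test in basal cells called 0 of 81 members, against 0.0398% of all genes. An unadjusted p under 0.05 was reached by 4 members there and by 8.94% of all genes, and DESeq2 was not run on interactions.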

How the results depend on the processing

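No called gene that the rule named reversed its direction under any alternative. Over all alternatives such genes kept their call 225 times and lost it 72 times, the losses all with 1 library left out or the LP libraries summed. No loss fell on Cox6a2, Cox6b2 or Cox8a in basal against mature luminal cells, Cox6b2 at 4 weeks or Ndufaf4 for 9 against 4 weeks. Of these, Cox6a2 was near the floor in the mature luminal libraries. DESeq2 called 9 members between basal and luminal cells at 4 weeks (39.3% of all genes), 1 at 6 weeks (16.6%) and 7 in the E2 experiment (14.7%). Between genotypes it called 1 in basal cells at 4 weeks (0.00828%), 1 in basal cells at 6 weeks (3.09%) and 39 in luminal cells at 6 weeks (12.5%). For 6 against 4 weeks it called 11 in basal (12.6%) and 7 in luminal cells (7.93%), for 9 against 4 weeks 7 (21.8%), for E2 in luminal cells 1, Ndufs6 (1.03%), and for strain in luminal cells 1, Ndufaf6 (3.49%). RLE scaling and no filter each gave 5 members in basal (3.7% and 2.43% of all genes) and 1 in luminal cells (1.08% and 0.87%) for 6 against 4 weeks, and no filter gave 1, Ndufaf4, between genotypes in luminal cells of 6 weeks (0.368%). Fitting both young ages together gave 34 there (8.77%) and 1 in basal cells (1.73%).

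The replicate block, by number within genotype, gave 69 members between LP and mature luminal cells (45.8% of all genes) and 37 between basal and mature luminal cells (54.1%), and the animal as a block gave 22 between cell types at 4 weeks (42.8%). Blocks changed no other count of members. Summed LP libraries gave 2 (11.7% of all genes) and, in an alternative chosen after seeing the data, 59 with the block (33.8%).

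Leaving out 1 library at a time (97 fits, where a lone library was taken to vary like the other groups) moved the count of members from 23 to between 3 and 30 for LP against mature luminal cells, from 11 to between 4 and 17 for basal against mature luminal cells and from 2 to between 2 and 13 at 4 weeks. It gave 0 to 5 between cell types at 6 weeks, 0 to 1 between genotypes in LP, 0 to 42 between genotypes in luminal cells of 6 weeks, 0 to 10 and 0 to 9 for 6 against 4 weeks in basal and luminal cells, and 1 to 7 for 9 against 4 weeks. All other counts were 0 in each fit. Without the 3 basal libraries rich in pericyte markers, an alternative chosen after seeing the data, 0 members were called between cell types in the E2 experiment, and the effect of E2 in basal cells could not be fitted for want of spread. Levels per transcript length were not run. The causes of these shifts were not tested.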
